A study of Mus musculus with 18 samples.

Results

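H3K4me3, the histone mark that PRDM9 deposits at recombination hotspots, was compared at 5004 autosomal sites found in both of 2 hybrid crosses, the reciprocal F1 and the rescue F1. The deposited tables give H3K4me3 in 1 kb bins, each centred on a DMC1 hotspot called in that cross. Bins of the 2 tables were paired when their centres lay within 1000 bp of each other, taking the nearest centre, after bins with an input count above 10 times the table median were left out. The pairs came from 17516 reciprocal and 15019 rescue autosomal bins, among 56089 autosomal bins of the reciprocal, rescue and infertile hybrid tables. A column of each table marks bins at H3K4me3 peaks that the authors took as likely made without PRDM9. Of the 5004 pairs, 4529 carried this mark on neither side (called unflagged here), 469 carried it on both sides (flagged) and 6 on 1 side only. The 5004 pairs use 5001 rescue bins, since 3 rescue bins each lie nearest to 2 reciprocal bins.

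The reciprocal F1 came from a B6 mother and a PWD father, labelled (B6xPWD)F1, with the Prdm9 genotype PWD/B6, and the table header calls these males semi-fertile. The rescue F1 came from the opposite cross, (PWDxB6)F1, with the Prdm9 genotype PWD/Humanized, in which the zinc fingers of the B6 allele are replaced by human ones. An infertile F1, also (PWDxB6)F1 but with the genotype PWD/B6, served as a reference because it shares its cross direction with the rescue F1 and its Prdm9 genotype with the reciprocal F1. The infertile and rescue males were littermates per the labels. Each cross had 2 biological ChIP replicates and 1 input from fixed whole adult testis, immunoprecipitated with 1 H3K4me3 antibody. All 3 crosses carry the PWD allele of Prdm9. Cross direction and Prdm9 genotype both differ between the reciprocal and the rescue F1 and cannot be told apart in a comparison of these crosses alone. In whole testis, fewer spermatocytes and less mark per spermatocyte cannot be told apart either.

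PRDM9 is a germline protein that binds DNA through a zinc finger array and trimethylates lysine on histone H3 nearby. The double-strand breaks of meiosis then form at these sites, and DMC1, the meiotic strand-exchange protein, loads on the resected ends. Because the zinc fingers set which sequences are bound, the B6, PWD and human versions place hotspots at different sites. At promoters, H3K4me3 is made by other enzymes and marks transcription starts. A hotspot is called asymmetric when 1 of the 2 homologous chromosomes carries most of the mark, for instance where the motif is damaged on 1 of them.

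The B6 reference sequence is shown here to place some of the unflagged pairs named below, in mm10 on the plus strand. Apart from Zmym4, they are the named unflagged pairs with the greatest contrast between the crosses in each direction. Each sequence is the central 200 bases of the bin on the side with the higher signal. Capitals mark CCTCCCT, a 7-base motif of human recombination hotspots, searched on both strands. The Gabbr1 stretch (chr17:37067023-37067222) holds 2 matches. Those near Mill2 (chr7:18833795-18833994) and Fbxl17 (chr17:63027455-63027654) hold 0, as do those higher in the reciprocal F1, in Neb (chr2:52159506-52159705) and near Tsc22d2 (chr3:58489296-58489495). Zmym4 (chr4:126913157-126913356), which had the highest minimum enrichment over both crosses among the unflagged pairs named below, also holds 0.
Gabbr1: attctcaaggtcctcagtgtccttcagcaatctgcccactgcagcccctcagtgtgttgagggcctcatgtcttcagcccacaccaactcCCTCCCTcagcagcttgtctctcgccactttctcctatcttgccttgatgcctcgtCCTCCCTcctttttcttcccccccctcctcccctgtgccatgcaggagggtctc
Mill2: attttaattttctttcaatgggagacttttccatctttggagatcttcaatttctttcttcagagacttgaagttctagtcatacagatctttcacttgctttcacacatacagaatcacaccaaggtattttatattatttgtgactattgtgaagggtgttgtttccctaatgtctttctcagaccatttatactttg
Fbxl17: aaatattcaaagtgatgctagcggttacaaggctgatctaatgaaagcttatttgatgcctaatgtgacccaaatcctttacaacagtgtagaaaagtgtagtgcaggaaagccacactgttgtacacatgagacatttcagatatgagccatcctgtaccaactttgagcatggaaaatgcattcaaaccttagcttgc
Neb: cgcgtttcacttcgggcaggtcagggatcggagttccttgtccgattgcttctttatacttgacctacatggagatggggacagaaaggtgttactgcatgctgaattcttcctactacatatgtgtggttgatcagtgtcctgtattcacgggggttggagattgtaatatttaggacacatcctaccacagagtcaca
Tsc22d2: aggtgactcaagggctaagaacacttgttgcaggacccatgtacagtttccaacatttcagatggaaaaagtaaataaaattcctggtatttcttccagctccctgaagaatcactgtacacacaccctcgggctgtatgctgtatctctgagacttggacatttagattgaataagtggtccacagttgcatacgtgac
Zmym4: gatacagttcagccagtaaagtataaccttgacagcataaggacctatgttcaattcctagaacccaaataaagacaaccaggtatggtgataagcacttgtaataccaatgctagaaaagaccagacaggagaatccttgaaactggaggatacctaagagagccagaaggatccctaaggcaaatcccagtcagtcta

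The X chromosome, which a male inherits from his mother, matched the labelled cross direction in all 3 crosses. Among X bins with at least 10 informative reads, the B6 share of H3K4me3 was above 0.9 in 100% of 334 reciprocal bins. It was below 0.1 in 99.7% of 296 rescue bins and 99.5% of 597 infertile bins. The kept autosomal bins held 1077145 and 1002145 ChIP fragments in the reciprocal replicates, 816455 and 920544 in the rescue replicates, and 5154995 and 5104104 in the infertile ones over a larger set of bins. The reciprocal libraries had more background. By the background rate fitted to the deposited enrichment values, 48.4% of their fragments at unflagged pairs were background, against 22.1% in the rescue libraries. Cell type identity could not be checked from these bins: of the Sertoli, Leydig and spermatocyte marker genes listed, 0 had a pair within 2000 bp, while 1 spermatogonial marker (Gfra1) and 2 spermatid markers (Spaca1 and Prm1) did.

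The paired bins sat at nearly the same place in both crosses. The median distance between centres was 65 bp, and 3136 pairs (62.7%) lay within 100 bp. Unflagged pairs took up 27.9% of unflagged reciprocal bins and 33.1% of unflagged rescue bins, and flagged pairs 37.4% and 36.5%. In the reciprocal F1 the median enrichment was 0.749 at unflagged paired bins and 0.252 at unflagged bins without a partner. In the rescue F1 the corresponding medians were 0.845 and 0.879. Of the 4529 unflagged pairs, 2448 lay in introns and 1828 between genes, 119 in coding exons, 79 in UTRs and 55 in other exons. A protein-coding transcription start lay within 1 kb of 61 unflagged pairs (1.35%) and 59 flagged pairs (12.6%).

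Relative to the flagged sites of the same library, unflagged hotspots carried more H3K4me3 fragments in the reciprocal F1 than in the rescue F1. The sum of ChIP fragments at unflagged pairs was 2.87 and 2.99 times that at flagged pairs in the reciprocal replicates, and 1.86 and 1.91 times in the rescue replicates. The replicates of the crosses did not overlap, and the ratio was 1.55-fold higher in the reciprocal F1. With 2 replicates against 2, the two-sided exact permutation p was 0.33, the smallest this design allows. After the expected background was subtracted, the ratios were 1.97 and 1.89 against 1.52 and 1.58, and the difference shrank to 1.24-fold (exact p = 0.33). The infertile F1 stood above both, at 3.54 and 3.68 for fragments and 3.33 and 3.40 for background-subtracted signal, over the 4511 unflagged and 468 flagged sites with a bin in all 3 tables. The plot of these ratios shows that the gap between the reciprocal and rescue libraries narrows on subtraction while the infertile libraries stay highest.

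**Figure D1:**
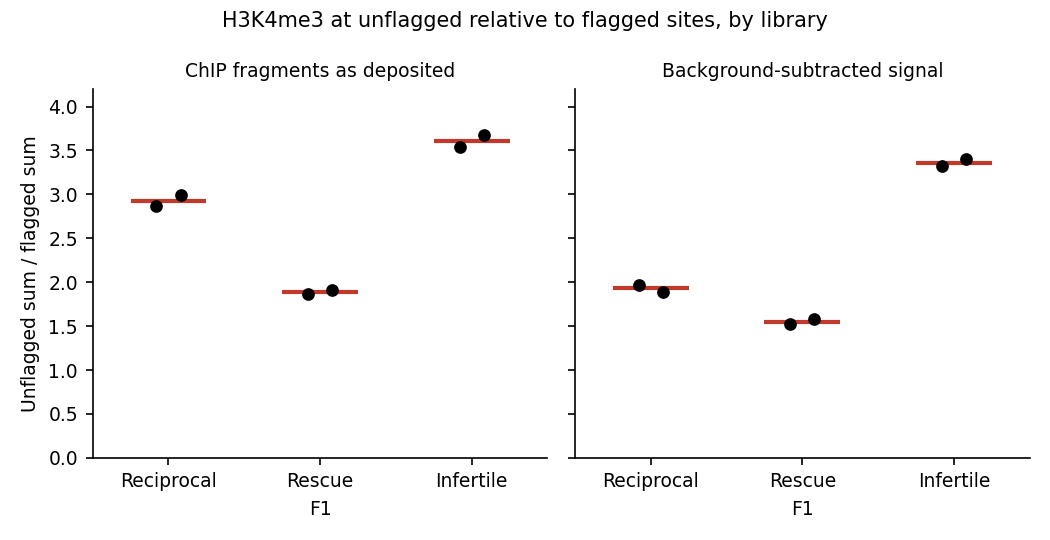
Ratio of summed H3K4me3 at unflagged over flagged sites in each ChIP library of the reciprocal, rescue and infertile F1, for ChIP fragments and for background-subtracted signal. Each point is 1 replicate. The rescue libraries sit lowest on both measures, and the infertile libraries highest.

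In single pairs, most unflagged hotspots were called higher in the reciprocal F1 when libraries were scaled to the flagged pairs. With edgeR's quasi-likelihood test and a Benjamini-Hochberg adjusted p below 0.05, 2911 of 4477 tested unflagged pairs were higher in the reciprocal F1 and 56 in the rescue F1, with a median log2 fold change of 0.65. Over all 4952 tested pairs the percentages called were 61.3% and 3.82%, so the count of unflagged pairs lies near this background, of which they form the bulk. At the flagged pairs, which set the scale, 125 of 469 were higher in the reciprocal F1 and 132 in the rescue F1, with a median of 0.02. The 59 flagged pairs close to a transcription start had a median of -0.02. The direction of the unflagged calls followed the scaling. With TMM (trimmed mean of M-values) over all pairs, 139 unflagged pairs were higher in the reciprocal F1 and 200 in the rescue F1, and flagged pairs were called 28 and 262 times. This scaling moved the median of all pairs from 0.61 to 0.03. With DESeq2's size factors and test the unflagged counts were 23 and 79, with TMM over pairs at PWD-only hotspots 123 and 224, and with plain sums over all pairs 564 and 101. DESeq2 gave an adjusted p to only part of the pairs, for instance 2510 of the 3218 at PWD-only hotspots.

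With the background subtracted, fewer unflagged pairs were called higher in the reciprocal F1 than by edgeR, and more were called higher in the rescue F1. In a limma fit to log2 background-subtracted signal, scaled to flagged pairs and with 5 fragments added, 309 unflagged pairs were higher in the reciprocal F1 and 196 in the rescue F1 (adjusted p below 0.05), beside 7.13% and 6.12% of all pairs. The median log2 change was 0.29 at unflagged pairs and -0.15 at flagged pairs. These limma counts hung on single libraries: they were 140 and 213 without reciprocal replicate 1, 3 and 22 without reciprocal replicate 2, 2 and 169 without rescue replicate 1, and 2 and 126 without rescue replicate 2. The edgeR counts fell to 1861 and 39 without reciprocal replicate 1, 1771 and 44 without reciprocal replicate 2, and 1934 and 48 without rescue replicate 2. Each such fit leaves 1 library in a cross, which is assumed to vary like the others.

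The deposited enrichment, a ratio to local background, gave the levels on each table's own scale. At unflagged pairs the median enrichment was 0.749 in the reciprocal F1 and 0.845 in the rescue F1, and at flagged pairs 1.36 and 2.68. At the same sites the infertile F1 had medians of 1.92 and 3.09. Between the 10th and 90th percentile, unflagged enrichment ran from 0 to 2.40 in the reciprocal and from 0.184 to 2.48 in the rescue F1. It was 0 at 486 reciprocal bins (10.7%) and 82 rescue bins (1.81%) of the unflagged pairs. The highest unflagged value was 31.3 in the reciprocal and 12.2 in the rescue F1. The authors' likelihood ratio p was below 0.05 at 66.7% of unflagged reciprocal bins and 87.3% of unflagged rescue bins. Per pair, the median log2 ratio of enrichment plus 1, reciprocal over rescue, was -0.14 at unflagged and -0.71 at flagged pairs, a description without a test, since replicates are combined in this value.

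**Figure D2:**
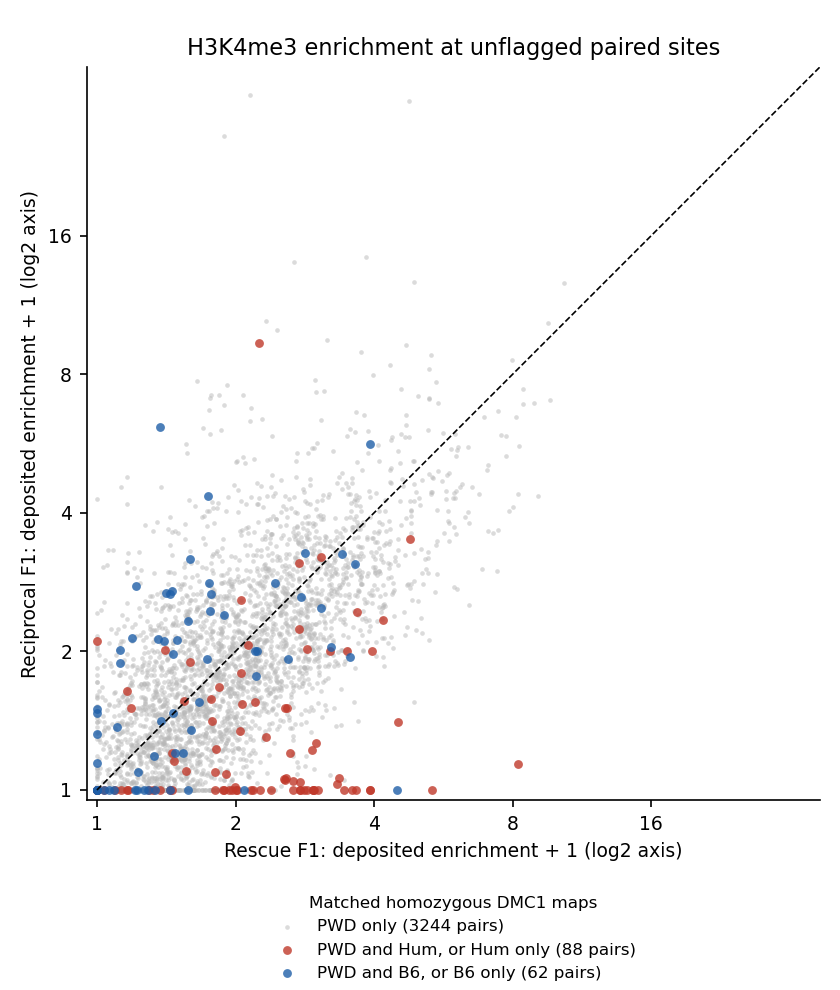
Deposited H3K4me3 enrichment plus 1 at unflagged paired bins in the reciprocal F1 against the rescue F1, on log2 axes. Colours give the matched homozygous DMC1 maps: PWD only, PWD and Hum or Hum only, and PWD and B6 or B6 only. Other unflagged pairs and flagged pairs are not drawn. The median enrichment over all unflagged pairs was 0.749 and 0.845.

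The order of hotspots by enrichment was shared in part. Across 4528 unflagged pairs the Spearman correlation between reciprocal and rescue enrichment was 0.65, against 0.80 between rescue and infertile and 0.74 between reciprocal and infertile. These are descriptions across sites. The points share each table's libraries, input and depth. DMC1 heat, the authors' relative strength of each hotspot measured in separate males, had a Spearman correlation of 0.83 between the reciprocal and rescue maps at the same pairs. The log2 ratio of DMC1 heat between the crosses correlated weakly with the log2 change of H3K4me3, at 0.22 for fragments and 0.15 for background-subtracted signal.

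Grouping the unflagged pairs by the homozygous DMC1 map that has a hotspot within 1000 bp separated sites by the Prdm9 allele that can use them. PWD is the allele common to both crosses, and 3244 pairs matched the PWD/PWD map only. Another 1103 matched none of the 3 homozygous maps, 59 matched PWD/PWD and Hum/Hum, 29 Hum/Hum only, 42 PWD/PWD and B6/B6, 20 B6/B6 only, 16 B6/B6 and Hum/Hum, and 16 all 3 maps.

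At the 3244 PWD-only pairs, the median enrichment was 0.832 in the reciprocal F1 and 0.856 in the rescue F1, and the median DMC1 heat 85.2 and 55.7. With scaling to flagged pairs, 2130 of 3218 tested were higher in the reciprocal F1 and 6 in the rescue F1 by edgeR, with a median log2 change of 0.66. These counts are near the 61.3% and 3.82% of all pairs, most of which are PWD-only, and are no result about this class. In the background-subtracted fit these counts were 243 and 100, beside 7.13% and 6.12% of all pairs, and the median was 0.34. When the PWD-only pairs were divided into 5 equal groups by PWD/PWD DMC1 heat, this background-subtracted median was 0.18 in the coldest group, then 0.32, 0.34 and 0.38, and 0.45 in the hottest. The fragment-based medians were 0.59, 0.66, 0.70, 0.70 and 0.64.

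Near hotspots of the human allele, which only the rescue F1 carries, calls toward the rescue F1 outnumbered those toward the reciprocal F1 at sites that also matched PWD. The 59 pairs matching PWD/PWD and Hum/Hum had a median enrichment of 0.063 in the reciprocal and 0.571 in the infertile F1, against 1.26 in the rescue F1. Their median DMC1 heat was 19.6 in the reciprocal map and 90.6 in the rescue map, each on its own scale. Of 55 tested, 6 were higher in the reciprocal and 24 in the rescue F1 by edgeR, beside 61.3% and 3.82% of all pairs. The 24 became 30 with TMM over all pairs and 27 with DESeq2, which gave an adjusted p to 48 pairs. As a percent of the signal at PWD-only pairs in the same library, 57 of these sites held 0.617 and 0.386 in the reciprocal replicates, 0.785 and 0.778 in the infertile, and 2.48 and 2.34 in the rescue replicates. The rescue libraries stood apart from the other 4, but the infertile bin was matched to the reciprocal centre, not to the rescue centre. Over all 59 pairs the reciprocal to rescue ratio of this share was 0.201-fold, and 0.487-fold for fragments without subtraction (exact p = 0.33 for each). The 29 Hum/Hum-only pairs had median enrichments of 0.015 in the reciprocal and 1.19 in the rescue F1. Of 28 tested, 11 were higher in each cross by edgeR. In the background-subtracted limma fit 2 were higher in the reciprocal and 14 in the rescue F1, beside 7.13% and 6.12% of all pairs. As a percent of PWD-only signal, 27 of them held 0.228% and 0.288% against 0.880% and 0.941%. The centres of the 2 bins differed by a median of 235 bp in the PWD and Hum class, and a pair can hold neighbouring but distinct hotspots. Among its 21 pairs within 100 bp, the median enrichments were 0.054 and 1.06, and of 18 tested 3 were higher in the reciprocal and 4 in the rescue F1 by edgeR.

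Near hotspots of the B6 allele, which the rescue F1 lacks, calls at sites that also matched PWD were toward the reciprocal F1 in most of those tested, under a scaling that calls most pairs this way. The 42 pairs matching PWD/PWD and B6/B6 had a median enrichment of 0.971 in the reciprocal and 2.25 in the infertile F1, against 0.448 in the rescue F1. Their median DMC1 heat was 102 in the reciprocal map and 41.7 in the rescue map. Of 38 tested, 36 were higher in the reciprocal F1 and 0 in the rescue F1 by edgeR with scaling to flagged pairs, beside 61.3% and 3.82% of all pairs. With the other scalings the count higher in the reciprocal F1 was 20 with plain sums and 11 with TMM over all pairs. It was 7 with DESeq2, which gave an adjusted p to 27 of these pairs. After background subtraction 13 were higher in the reciprocal and 1 in the rescue F1, beside 7.13% and 6.12% of all pairs. In percent of PWD-only signal, 41 of these sites held 1.348 and 1.346 in the reciprocal replicates, 1.335 and 1.374 in the infertile, and 0.791 and 0.773 in the rescue replicates. Over all 42 pairs the difference between reciprocal and rescue was 1.72-fold, and 1.47-fold for fragments without subtraction (exact p = 0.33 for each). For the B6/B6-only pairs, 18 held 0.471% and 0.353% in the reciprocal and 0.451% and 0.477% in the rescue replicates, which overlap. The sites with no homozygous match held 29.6% and 28.02% in the reciprocal replicates and 32.5% and 33.0% in the rescue replicates.

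**Figure D3:**
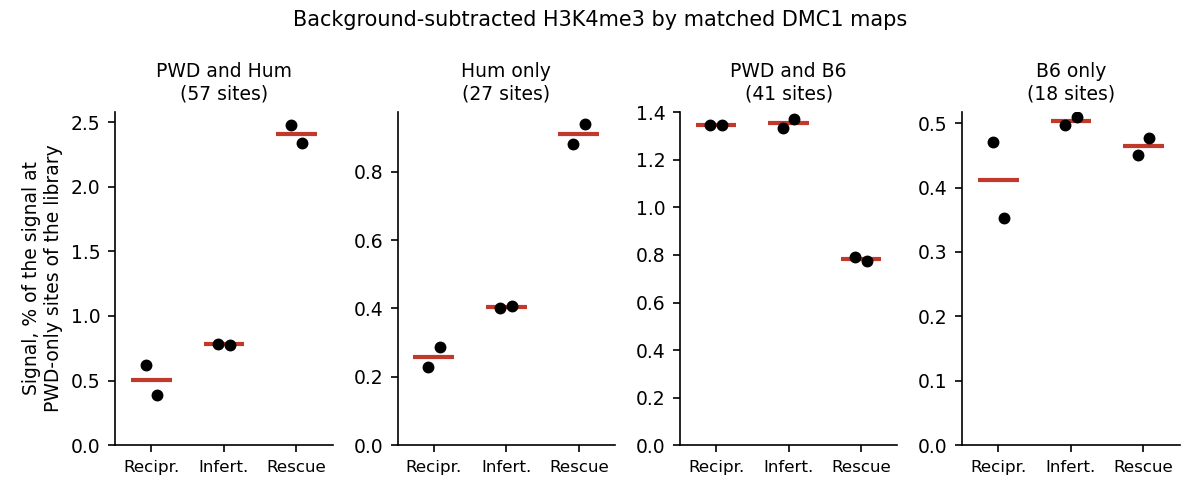
Background-subtracted H3K4me3 of each class of unflagged pair as a percent of the signal at PWD-only pairs in the same ChIP library, for the reciprocal, infertile and rescue F1. Each point is 1 replicate. Sites matching PWD and Hum held 0.617 and 0.386 in the reciprocal and 2.48 and 2.34 in the rescue replicates, and sites matching PWD and B6 1.348 and 1.346 against 0.791 and 0.773.

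The authors' own allele calls of the DMC1 maps gave a second grouping. The calls PWD in both maps covered 3464 unflagged pairs. The 42 pairs called PWD in the reciprocal map and HUM in the rescue one had median enrichments of 0.031 and 0.998. Their centres lay a median of 566 bp apart, with 21 over 500 bp, so the 2 sides can be different hotspots. By edgeR, 17 were higher in the reciprocal and 16 in the rescue F1, beside 61.3% and 3.82% of all pairs. The 37 called PWD and then PWD&HUM, a median of 142 bp apart, had enrichments of 0.063 and 1.56. Of 36 tested, 4 were higher in the reciprocal and 14 in the rescue F1 by edgeR, beside the same shares of all pairs. The 22 called B6&PWD and then PWD had enrichments of 1.14 and 0.448. By edgeR with scaling to flagged pairs, 22 of these 22 were higher in the reciprocal F1, beside 61.3% of all pairs, and 9 after background subtraction, beside 7.13%.

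Of the 6 unflagged pairs with the largest log2 change toward the reciprocal F1, 5 carried the authors' B6 call in the reciprocal map. In an intron of Neb (chr2:52159106-52160106), which encodes the muscle protein nebulin, the reciprocal replicates had 151 and 142 fragments and the rescue replicates 19 and 16. The expected background there was 29.3 and 32.3 against 11.1 and 12 fragments. The log2 fold change was 3.26 ± 0.20 (SE, n = 2 per cross, edgeR adjusted p = 6.29e-14), the bin centres lay 89 bp apart, and DMC1 heat was 413 in the reciprocal map and 28.8 in the rescue. Near Tsc22d2, 22613 bp away, the fragments were 72 and 73 against 10 and 11, in bins 897 bp apart. In Arid2, a chromatin remodelling subunit, they were 79 and 81 against 12 and 18, in bins 900 bp apart. At Dnajc10, which encodes an endoplasmic reticulum chaperone, the pair fell in a UTR with 63 and 67 against 12 and 13, in bins 179 bp apart. Pairs were named only where the replicates of the crosses do not overlap. The other named sites, in the coding exon of the olfactory receptor gene Olfr774 and in the kinase gene Pi4k2a, had 12 and 15 against 3 and 1, and 50 and 25 against 3 and 11, in bins 97 bp and 572 bp apart. At both, the background-subtracted limma test missed the threshold, with adjusted p of 0.0864 and 0.470.

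The 6 unflagged pairs with the largest log2 change toward the rescue F1 all carried the authors' HUM or PWD&HUM call in the rescue map. In an intron of Gabbr1 (chr17:37065732-37066732), encoding a GABA-B receptor subunit, the reciprocal replicates had 14 and 19 fragments, below the expected background of 22.5 and 24.8, and the rescue replicates 121 and 132. The log2 fold change was -2.73 ± 0.21 (SE, n = 2 per cross, edgeR adjusted p = 2.81e-11), in bins 891 bp apart. The infertile F1 had 14 and 15 fragments. Near Mill2, an MHC class I-like gene 6459 bp away, fragments were 13 and 12 against 86 and 97, in bins 388 bp apart. Near Fbxl17, an F-box gene 29401 bp away, they were 23 and 17 against 97 and 106, in bins 496 bp apart with a DMC1 heat of 34.8 and 402. In Elovl6, a fatty acid elongase gene, 28 and 21 stood against 116 and 119, in bins 136 bp apart. Near Sfrp1, which encodes a secreted Wnt inhibitor, 12 and 22 stood against 57 and 84, in bins 47 bp apart. In 2610035D17Rik the fragments were 27 and 23 against 96 and 98, in bins 770 bp apart. Bins this far apart may hold different hotspots. The infertile F1 had 10 to 26 fragments per replicate at these 6 sites, in the bin nearest to the reciprocal centre. Gene names give positions only, since transcription was not measured.

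**Figure D4:**
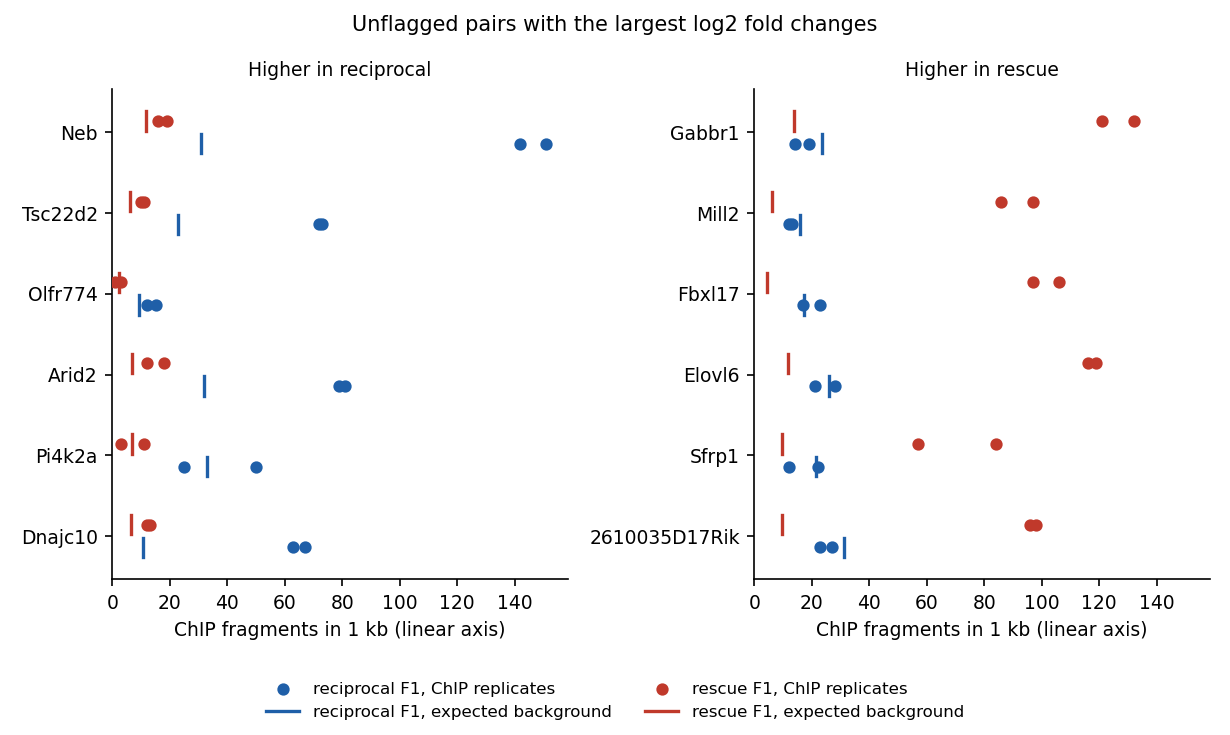
H3K4me3 ChIP fragments in each reciprocal and rescue replicate at the named unflagged pairs. Each point is 1 replicate. At Neb the reciprocal replicates had 151 and 142 fragments and the rescue replicates 19 and 16, and at Gabbr1 14 and 19 against 121 and 132.

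Of the 4 unflagged pairs outside chromosome 18 with the highest minimum enrichment over both crosses, 2 passed the edgeR test. Both were higher in the reciprocal F1 with scaling to flagged pairs, beside 61.3% of all pairs. The count is thus no result about these sites. In Zmym4, a zinc finger gene, fragments were 113 and 122 in the reciprocal and 96 and 104 in the rescue replicates (edgeR adjusted p = 0.0119), with enrichments of 11.6 and 9.34. In Tcf20, a transcriptional coregulator gene, they were 177 and 163 against 177 and 172, with overlapping replicates (edgeR adjusted p = 0.227). In Apol7e, 138 and 121 stood against 153 and 183 (edgeR adjusted p = 0.211). In Cpeb4, encoding an RNA-binding regulator of polyadenylation, 232 and 203 stood against 167 and 196, with an edgeR adjusted p of 0.00157. Zmym4, Tcf20 and Cpeb4 matched the PWD/PWD map only.

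The share of H3K4me3 on the B6 chromosome was close in both crosses at most sites. Of the unflagged pairs, 2682 had at least 10 informative reads on both sides, with a median B6 share of 0.927 in the reciprocal and 0.884 in the rescue F1. The median absolute difference was 0.055, and the Spearman correlation across pairs was 0.79. In 82.0% of pairs (95% Wilson interval 80.5 to 83.4) the share fell in the same class, with 1139 above 0.9 in both crosses, 962 between 0.1 and 0.9 in both, and 97 below 0.1 in both. From the reciprocal to the rescue F1, 271 went from above 0.9 to between and 144 the other way, 44 from below 0.1 to between and 23 the other way, 2 from below to above and 0 from above to below. At pairs matching no homozygous map, the median share was 1.00 and the median absolute difference 0.013 (752 pairs). At PWD-only pairs that difference was 0.074 (1874 pairs).

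A small set of unflagged pairs, 148, differed by more than 0.3 in B6 share, with 81 higher in the reciprocal and 67 in the rescue F1. The infertile share was nearer to the reciprocal in 72 and nearer to the rescue in 75 of the 147 with an infertile value. DMC1 shares from separate males differed in the same direction in 81 of 138. Near Akr1d1 (12478 bp away), a bile acid synthesis gene, the share was 0.892 (95% Wilson interval 0.823 to 0.936, 116 reads) in the reciprocal and 0.224 (0.151 to 0.319, 92.4 reads) in the rescue F1, at bins 7 bp apart, and 0.199 in the infertile F1. Near Moxd2, it was 0.524 in the reciprocal and 0 in both the rescue and the infertile F1, and the DMC1 shares were 0.576 and 0.014. In Dnah12, an axonemal dynein gene, the shares were 0.435 and 0.977, the infertile share 0.418, and the DMC1 shares 0.362 and 0.942. In Ppfibp2, a liprin gene, they were 0.490 and 0.999, with 0.502 in the infertile F1. In Bnc1, a germ cell zinc finger gene, they were 0.203 and 1 in bins 950 bp apart. The infertile share sat beside the rescue value at Akr1d1 and Moxd2 and beside the reciprocal value at Dnah12 and Ppfibp2. By contrast, pairs in Virma and Skint5 and an intergenic pair 374563 bp from Cobl had shares of at least 0.995 in both crosses.

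**Figure D5:**
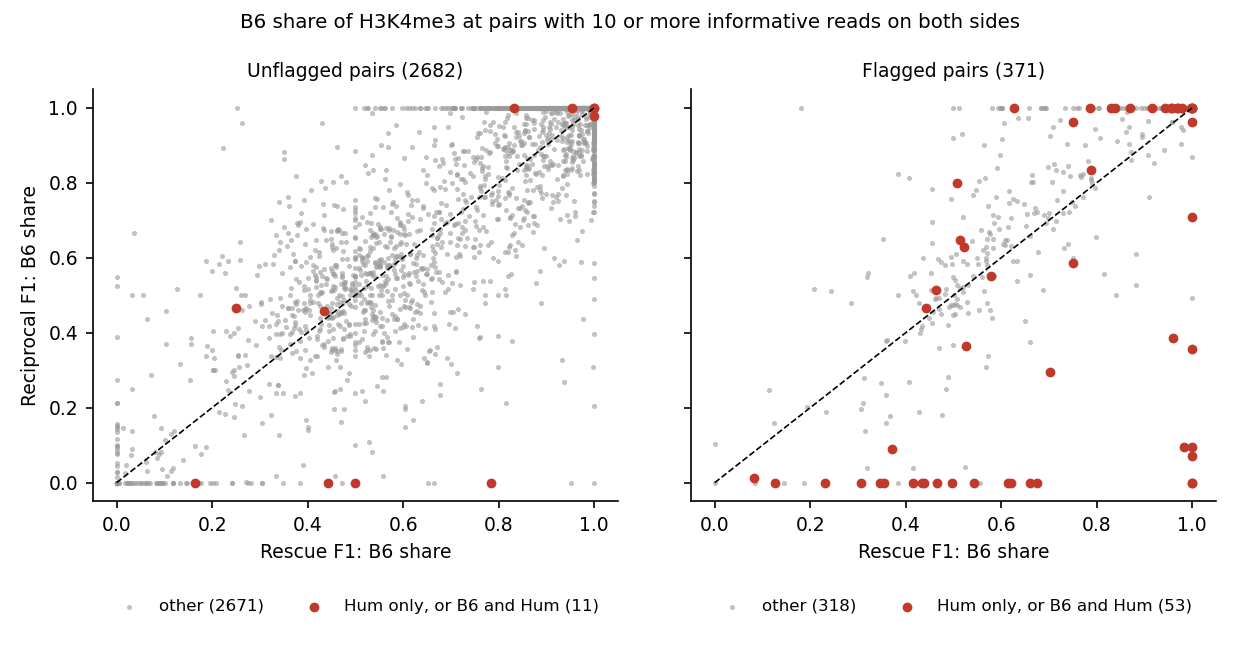
B6 share of H3K4me3 at pairs with at least 10 informative reads on both sides, in the reciprocal F1 against the rescue F1. Unflagged and flagged pairs are in separate panels. Each point is 1 pair, and those matching Hum only, or B6 and Hum, are red. Most unflagged pairs lie near the diagonal, and 148 of 2682 differ by more than 0.3.

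Pairs that matched a human hotspot but no PWD one are given by class, over both flags, since the classes differed in their medians. At 26 pairs matching B6/B6 and Hum/Hum, the median B6 share was 0.196 in the reciprocal and 0.515 in the rescue F1, and it was below 0.1 in 13 and in 0. All 13 of these pairs that differed by more than 0.3 were higher in the rescue F1, and the DMC1 share differed in the same direction in 13 of 13. At 38 pairs matching Hum/Hum only, the median share was 1.00 in the reciprocal and 0.892 in the rescue F1, while the share was below 0.1 in 13 and in 1. Of the 12 that differed by more than 0.3, 11 were higher in the rescue F1, with the DMC1 share in the same direction in 11 of 11. The infertile share was nearer to the reciprocal in 12 of 13 and 12 of 12, but the infertile bin was matched to the reciprocal centre. In the class matching B6/B6 and Hum/Hum, 56 pairs had centres a median of 490 bp apart, with 8 within 100 bp and 26 over 500 bp, so the 2 sides can hold neighbouring B6 and human hotspots. The Hum/Hum-only class of 67 pairs had a median distance of 135 bp.

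The flagged pairs varied widely around their median of 0.02. The largest excess in the reciprocal F1 was near Cdk15, a kinase gene, with 112 and 140 fragments against 12 and 24. It was followed by Atp1b1, a sodium pump subunit gene, with 174 and 170 against 24 and 27, and Prss23, a protease gene, with 53 and 32 against 6 and 7. The largest excess in the rescue F1 was at a pair whose nearest gene, 1700018P08Rik, lay 71045 bp away, with 27 and 31 against 225 and 212. In Ehd2, a membrane remodelling ATPase gene, the fragments were 61 and 42 against 345 and 364, and near Bbs5, a ciliary transport gene, 23 and 10 against 86 and 100. Near Cdk15 the pair matched PWD and B6 hotspots, Ehd2 and 1700018P08Rik matched Hum only, and Atp1b1, Prss23 and Bbs5 matched B6 and Hum, on either side of the comparison. The bin centres lay 973 bp apart at Atp1b1, 622 bp at Ehd2, 406 bp at Bbs5, 254 bp at Prss23, 153 bp at Cdk15 and 27 bp at 1700018P08Rik. The strongest flagged sites lay beside transcription starts. Dmtf1 had 3018 and 2556 against 3078 and 3288 fragments, and Fbxo30 2740 and 2172 against 3078 and 3347. Rsbn1l, where the bin centres lay 534 bp apart, had 3318 and 2845 against 1235 and 1327. By class, flagged pairs matching PWD and Hum were higher in the reciprocal F1 in 2 and in the rescue F1 in 21 of 44 (edgeR), and those matching PWD and B6 in 19 and 1 of 25, beside 26.7% and 28.1% of all flagged pairs.

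In the fit over 3 crosses, the infertile F1 gave a comparison with each change apart. The contrasts share libraries, so only their own values are given. Infertile over rescue, which holds the cross direction constant, gave 3293 higher and 78 lower of 4482 unflagged sites by edgeR scaled to flagged sites, beside 70.3% and 5.23% of all sites. Reciprocal over infertile, with equal Prdm9 genotype, gave 162 higher and 389 lower, beside 5.6% and 9.17%. The median log2 changes were 0.71 and -0.07. With background subtracted (limma), infertile over rescue gave 1790 and 64 with a median of 0.67, and reciprocal over infertile 14 and 921 with a median of -0.39. No share over all sites is given for these limma counts. Since 4482 of the 4950 tested sites were unflagged, the counts are no result about that class. At the 468 flagged sites, these limma contrasts gave 117 higher and 167 lower, and 98 higher and 108 lower. The background share of fragments, 38.7% and 45.9% in reciprocal and 3.76% and 5.18% in infertile libraries over all kept bins, moved with these contrasts, and its part in them was not tested.

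Few genes of the recombination machinery had a paired hotspot within 2000 bp. Of 30 meiotic recombination genes found, 4 did. At Rec114, a partner of the break-forming machinery, fragments were 62 and 57 against 33 and 53, with a log2 fold change of 0.67 (edgeR adjusted p = 0.00758). Under this scaling to flagged pairs, edgeR called 61.3% of all pairs higher in the reciprocal F1, and the unflagged median was 0.65. Such calls are no result about the listed genes. Hormad2, a chromosome axis gene, had 68 and 64 against 54 and 73 (edgeR adjusted p = 0.195), and Gm960 57 and 51 against 55 and 70. The Hsf2bp pair was flagged and had 211 and 204 against 227 and 271. Of 11 synaptonemal complex and cohesin genes, 2 had a pair. Rec8, the meiotic cohesin, had 62 and 77 against 31 and 53 (edgeR adjusted p = 0.000851), and Sycp1, the transverse filament of the synaptonemal complex, 10 and 20 against 17 and 7. Of 11 H3K4 methylation genes, 2 had a pair, with 64 and 61 against 34 and 56 at the demethylase gene Kdm1a and 97 and 94 against 64 and 65 at the methyltransferase gene Kmt2b. In the background-subtracted fit, Rec114, Rec8, Kdm1a and Kmt2b all missed the threshold (limma adjusted p of 0.271, 0.312, 0.0828 and 0.981). At Rec8 the log2 change went from 0.93 for fragments to -0.85 after subtraction. Its enrichment was 0.097 in the reciprocal and 0.525 in the rescue F1. The sign also changed at Sycp1 (0.52 to -0.46) and Hsf2bp (-0.06 to 0.11). It stayed the same at Rec114, Hormad2, Gm960, Kdm1a and Kmt2b.

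The paired sites held human hotspot motifs about as often as reciprocal bins did. CCTCCCT, on either strand, lay in the central 300 bases of 6.91% of unflagged pairs centred on the reciprocal bin and 7.33% centred on the rescue bin, against 7.55% of all reciprocal and 12.4% of all rescue bins. The degenerate 13-base human PRDM9 motif, which contains the 7-base one in some of its forms, lay in the central 300 bases of 1.88% and 1.99% of the unflagged pairs, against 2.16% of all reciprocal and 9.85% of all rescue bins. Over the whole 1 kb around the rescue centre, it was found in 14 of the 56 pairs called higher in the rescue F1 and in 7.63% of those called higher in the reciprocal F1, against 8.35% of all unflagged pairs. Among all rescue bins, those the authors called HUM held it in 26.4% and those called PWD in 7.63%. A match describes the letters only, and the PWD chromosome sequence was not used here.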

How the data were processed

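Whole-testis H3K4me3 ChIP-seq tables of the reciprocal, rescue and infertile F1 were used, with 2 ChIP replicates and 1 input per cross. The submitters' processing notes name BWA, SAMtools, bedtools and build mm10, without versions, and the labels give 51 bp paired reads and 40 to 50 M usable read pairs per replicate. Per the file headers, the deposited counts are ChIP or input fragments overlapping each 1 kb bin centred on a DMC1 hotspot. The deposited enrichment is a ratio of ChIP signal over local coverage, estimated by maximum likelihood and never below 0, and the deposited p-value comes from the matching likelihood ratio test, both per the file headers. The B6 share is a fraction the authors estimated and deposited, with informative reads, a signal after background subtraction that need not be whole, so the Wilson intervals are approximate and cover counting error only. The authors deposited DMC1 heat as a relative signal whose definition is not given in the sources used here; labels put those males at about 10 weeks.

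The members, lists and tests were chosen with earlier results of these data known. Tests used edgeR 4.0.16, limma 3.58.1 and, as an alternative, DESeq2 1.42.0 in R 4.3.3, with SciPy 1.17.1, pandas 2.3.3 and NumPy 2.4.6 in Python 3.11.15 and figures in Matplotlib 3.10.9. Pairs with at least 10 fragments in at least 2 of 4 libraries were tested (4952, while 52 were not). Library sizes were sums over flagged pairs with TMM factors over them. The labels pair no replicates across crosses, and p-values measure the spread between 2 biological replicates per cross. The deposited enrichment was reproduced with a background per input fragment of 0.713 and 0.786 in the reciprocal, 0.317 and 0.343 in the rescue and 0.267 and 0.364 in the infertile replicates. Background-subtracted signal is the ChIP count minus that rate times the local coverage of the bin. That coverage was fitted from the ChIP counts and the input count together. Origin classes use centres of homozygous DMC1 maps within 1000 bp, and genes come from GENCODE M21. The infertile bin of a site is the one nearest to the reciprocal centre, within 1000 bp. The test scripts were tested on simulated data. Named sites are, outside chromosome 18, the 6 called unflagged pairs with the largest change in each direction and no overlap between replicates, the 4 with the highest minimum enrichment, the 5 with the largest B6 share difference with 30 or more informative reads, the 3 one-sided alike, 3 flagged pairs of each kind, and list genes within 2000 bp. Alternatives covered scaling, the count and input filters, pairing distance, read minimum, pseudocount and each replicate left out. The background-subtracted fits and ratios and the view of origin classes within 100 bp were chosen after seeing the data.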

Additional observations from a re-analysis of the deposited data

How the results depend on the processing

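The unflagged pairs higher in the reciprocal F1 (2911) became 139 with TMM over all pairs, 123 with TMM over PWD-only pairs, 564 with plain sums, 23 with DESeq2, 309 after background subtraction and 1592 with centres within 100 bp. Leaving out a replicate gave 1771 to 2254, and 2 to 140 after background subtraction. Those higher in the rescue F1 (56) became 200, 224, 101, 79 and 196 under the first 5 of these settings and 16 within 100 bp, 37 within 500 bp, 39 to 52 without a replicate, and 22 to 213 without a replicate after subtraction. Flagged pairs higher in the reciprocal F1 (125) became 28, 27, 44, 20, 44 and 56 under the same 6 settings, and those higher in the rescue F1 (132) 262, 269, 212, 203, 106 and 63. The median log2 enrichment ratio of -0.14 was -0.20 with a pseudocount of 0.5, -0.088 with 2 and -0.24 without one, over the 3997 pairs above 0 in both. With share limits of 0.3 and 0.7, 87.8% of pairs kept their class. The log2 unflagged to flagged ratio stayed between 0.605 and 0.665 without a replicate and was 0.433 with the input scaled by bins of enrichment 0. The median B6 share difference ranged from 0.029 with 50 reads to 0.065 with 5. None of the 18 pairs named for the largest log2 changes changed direction, and they were picked for large changes. Outside this set, the sign differed between the edgeR and background-subtracted fits at Rec8, Sycp1, Hsf2bp, Apol7e, Cobl and Fbxo30. Olfr774 and Pi4k2a had no adjusted p under DESeq2 and lost their call after subtraction. The cause of these shifts was not tested. No paired analysis was possible because the labels pair no replicates of the reciprocal F1 with those of the rescue F1.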

Other observations

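By autosome, the median log2 change of unflagged pairs scaled to flagged pairs ran from 0.54 on chromosome 11 to 0.70 on chromosome 16 for fragments, and from 0.10 to 0.42 for background-subtracted signal, so every autosome leaned toward the reciprocal F1 under this scaling. At flagged pairs the Spearman correlation of enrichment was 0.63 between reciprocal and rescue, 0.66 between reciprocal and infertile and 0.38 between rescue and infertile, an order unlike that at unflagged pairs. Flagged pairs also had a larger median absolute difference in B6 share (0.085 over 371 pairs), and 56 of them differed by more than 0.3, 28 in each direction. Among those with an infertile value, the infertile share lay nearer to the reciprocal in 43 of 55, but the infertile bin was matched to the reciprocal centre. The DMC1 share differed in the same direction in 42 of 52.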
